A study of Mus musculus with 6 samples.

Results

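The Wnt pathway genes described here are the Wnt ligands, their receptors and co-receptors, the secreted inhibitors, the R-spondins, and the intracellular and target genes. They were taken by gene symbol, as every Wnt, Frizzled, Sfrp and Dkk gene together with further genes listed by name. All were found, 60 genes of the 24346 in the tables. The samples were condylar cartilage, the growth cartilage that caps the lower jaw at its joint, dissected from mice. The 3 control libraries are labelled fl/fl, the usual notation for a floxed gene. The 3 mutant libraries are from mice whose craniofacial neural crest cells had lost the gene for Indian hedgehog (Ihh), according to the series title. The sources used here give neither the driver of the Cre recombinase nor the age of the mice. They also do not say that each library is a separate animal, and p-values therefore reflect only how these libraries vary, which may be technical. The comparison addresses which transcripts of the jaw joint cartilage differ in level between these control and mutant libraries. These also differed in sex and in tissue markers, as given below.

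Wnt proteins are secreted, lipid-modified ligands. In the canonical branch a Wnt joins a Frizzled receptor to the co-receptor Lrp5 or Lrp6, beta-catenin escapes destruction, and it enters the nucleus to activate genes together with Tcf and Lef factors. Several of the activated genes (Axin2, Nkd1, Notum, Apcdd1, Lef1, Tcf7) feed back on the pathway. In a second branch Wnt5a acts through the receptor kinase Ror2 and Frizzleds on cell shape and orientation. In cartilage, beta-catenin signalling favours hypertrophy and bone formation, and chondrocytes secrete the antagonists Frzb and Wif1.

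Levels are given in FPKM, that is fragments divided by transcript length and by library depth, and can so be compared between genes. Tests were run with limma on log2(FPKM + 1) over the 18715 genes that reached 1 FPKM in 3 or more libraries, and "called" means a Benjamini-Hochberg adjusted p below 0.05 over all of them. A log2 fold change is mutant minus control on that scale, which understates the change of genes at low levels. Ihh, the deleted gene, measured 3.73, 2.51 and 3.74 FPKM in the controls, against 2.18, 2.33 and 2.66 FPKM in the mutants (log2 fold change -0.34 ± 0.30, limma adjusted p = 0.724), and the deleted exons are not named in the sources used here. Gli1, a direct hedgehog target, measured 7.10 to 9.53 FPKM in the controls, against 0.168 to 0.807 FPKM in the mutants (limma adjusted p = 0.0152). The sexes were unequal: Xist was at 29.5 and 29.2 FPKM in controls 1 and 2 and at most 0.984 FPKM in the other libraries, so that control 3 is the only control matched to the mutants in sex. Markers of other tissues also differed. The summed level of 18 skeletal muscle genes was 5181 to 12805 FPKM in the controls, against 20743 to 37353 FPKM in the mutants (9 called higher), and that of 10 endothelial genes 84.7 to 149 and 219 to 271 FPKM (3 called higher), with no gene of either list at 0. That of 12 chondrocyte markers was 413 to 547 and 217 to 261 FPKM (5 called lower, with Matn1 at 0 in mutant 3), although Comp among them was higher in every mutant and not called. The sums of 10 fibrous and progenitor layer markers (2285 to 3079 and 1273 to 2122 FPKM; Postn and Tnc called lower, Prg4 called higher) and of 8 pericyte and smooth muscle markers (211 to 243 and 155 to 186 FPKM; Acta2 called lower) were lower in every mutant, with no gene of either list at 0. Both of these lists were mixed by gene, and their sums follow the abundant genes. The median log2 fold change was -0.09 over the fibrous list and 0.19 over the pericyte list. Mean levels were higher in the mutants, without a call, for Cd34, Scx, Dcn and Pdgfra in the first list. In the second this held for Rgs5, Pdgfrb, Myh11, Kcnj8 and Abcc9. A list of 8 hypertrophic chondrocyte markers was mixed as well. Panx3 was called lower (limma adjusted p = 0.0125), and Col10a1 was lower in every mutant without a call. Ihh and Pth1r had lower means, and Spp1, Mmp13, Alpl and Ibsp higher means, with overlapping groups. The part of the marker differences in the results below was not tested, and in bulk tissue fewer cells of a type cannot be told apart from less RNA per cell.

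Low values were spaced as whole fragments, which gave an estimated 1270000 to 1700000 fragments per library as the authors' scaling total. For 46 of the 60 members the 6 values fitted whole numbers of fragments within 0.02 of a fragment. As a gauge of the level at which silent genes can be listed, the 90th percentile of 1102 olfactory receptor genes was 6.49 to 8.58 FPKM. Below that percentile in all 6 libraries lay 33 members. Above it in all 6 lay 7 members, namely Wnt4, Wif1, Sfrp2, Dkk3, Tcf7l2, Nkd2 and Ctnnb1. Fzd1, Wnt10b and Frzb lay above it in every control and below it in every mutant. Dkk2 lay below it in control 1 and in every mutant, and Tcf7 in mutants 1 and 3.

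**Figure D1:**
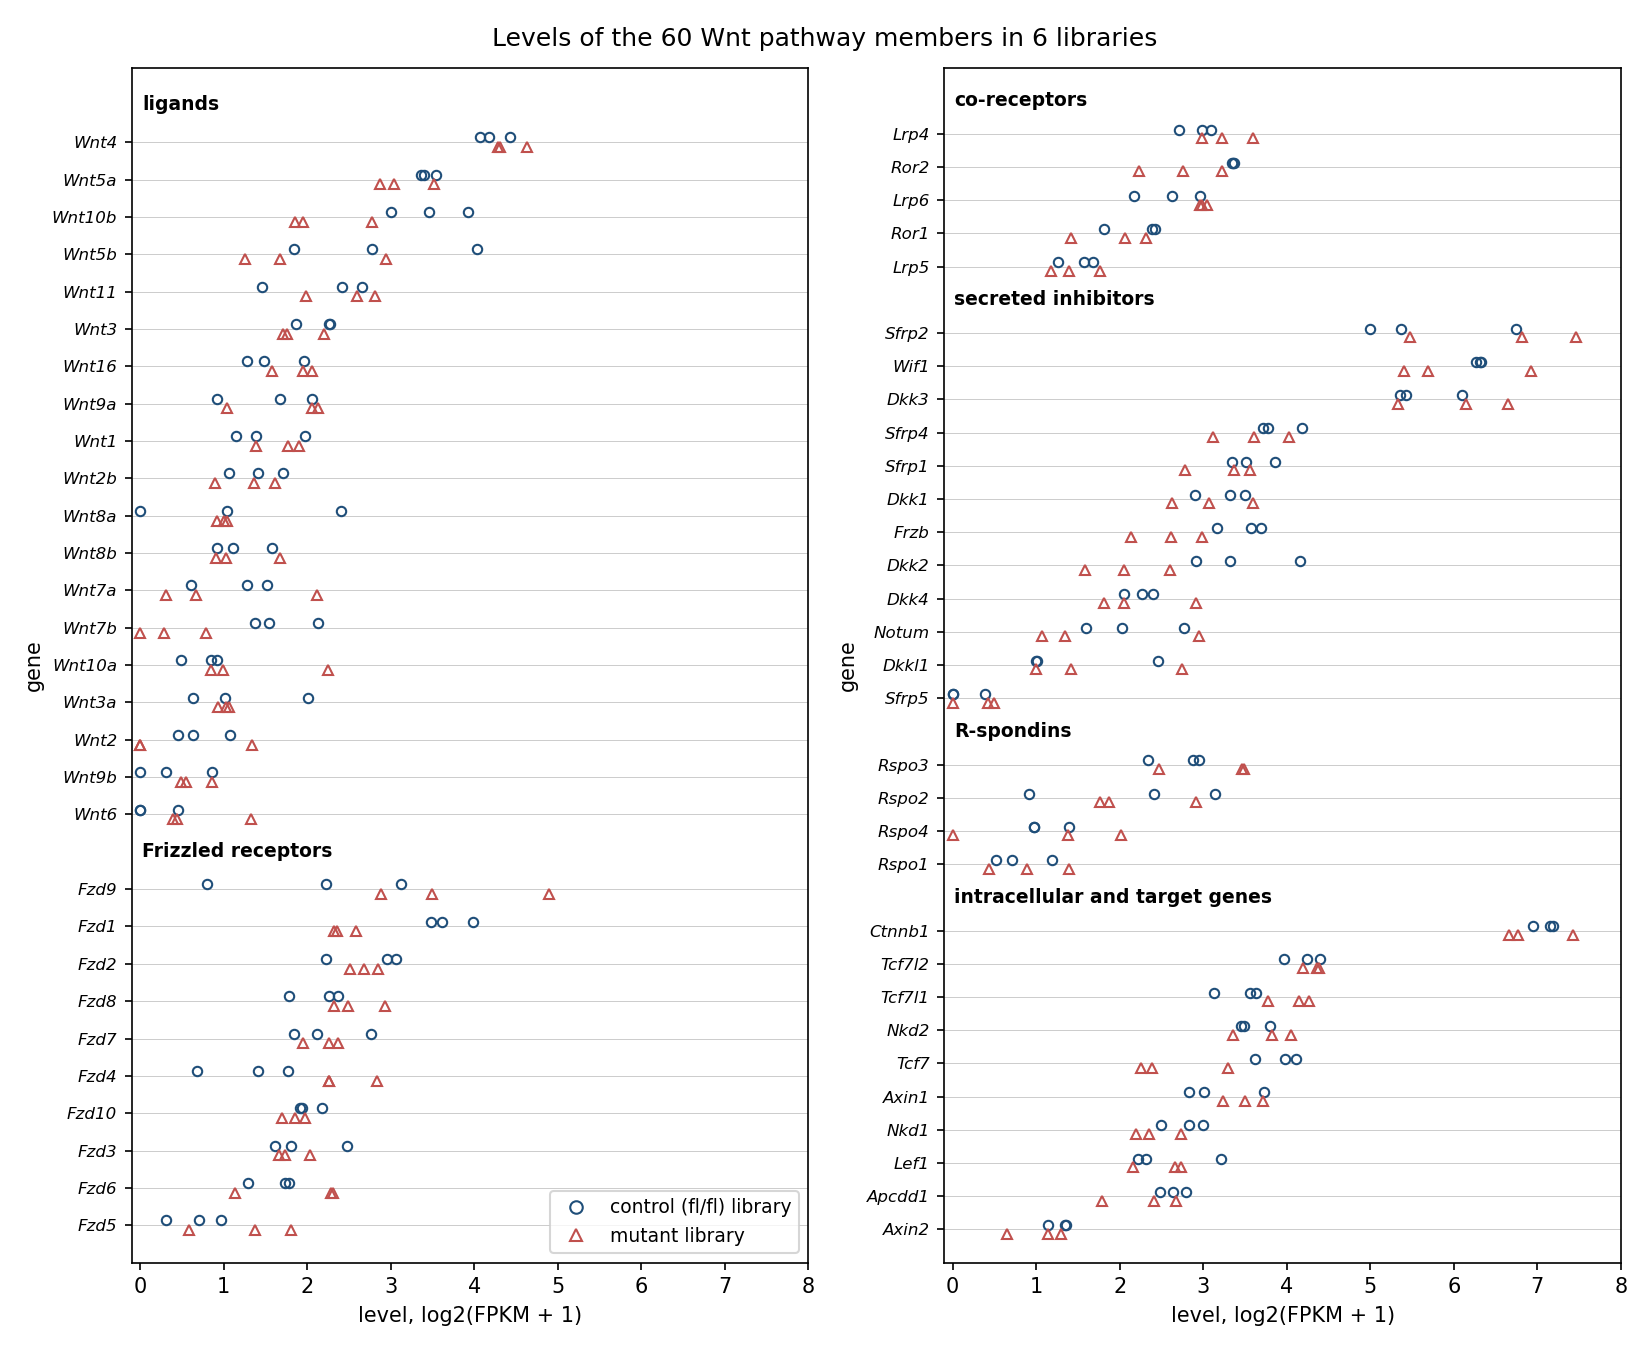
Level of each of the 60 members as log2(FPKM + 1) on the horizontal axis, with 1 row per gene grouped by role; circles are the 3 control libraries and triangles the 3 mutant libraries. Ctnnb1, Sfrp2, Wif1 and Dkk3 stand at the right, most ligands and Frizzled receptors lie below 10 FPKM, and the symbols of the groups overlap for most genes.

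Of the 60 members, 53 passed the filter on low values and 1 was called, Fzd1, which fell. That is 1.89% of the tested members, beside 1.24% of all genes tested. In the downward direction alone the share was also 1.89%, beside 0.465% of all genes, and rests on 1 gene. By limma 0 members were called higher, beside 0.775%. At an unadjusted p below 0.05 there were 9 members (17.0%), beside 14.1% of all genes tested. The values of the groups did not overlap in 9 members (17.0%), beside 19.2% of all genes tested. Of these, 7 were lower in mutants (13.2%, beside 9.4%) and 2 higher (3.77%, beside 9.77%). The median log2 fold change was -0.07 over the members and 0.00 over all genes tested, with 30 members negative and 23 positive. Wnt10a, Wnt2, Wnt6, Wnt9b, Fzd5, Sfrp5 and Rspo1, at 0 to 3.76 FPKM, were not tested. That 53 passed was decided by the values themselves, so these counts do not describe all members. Wnt7b passed through the controls alone, had to be lower in mutants, and is 1 of the members counted at the unadjusted p and among the 7.

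**Figure D2:**
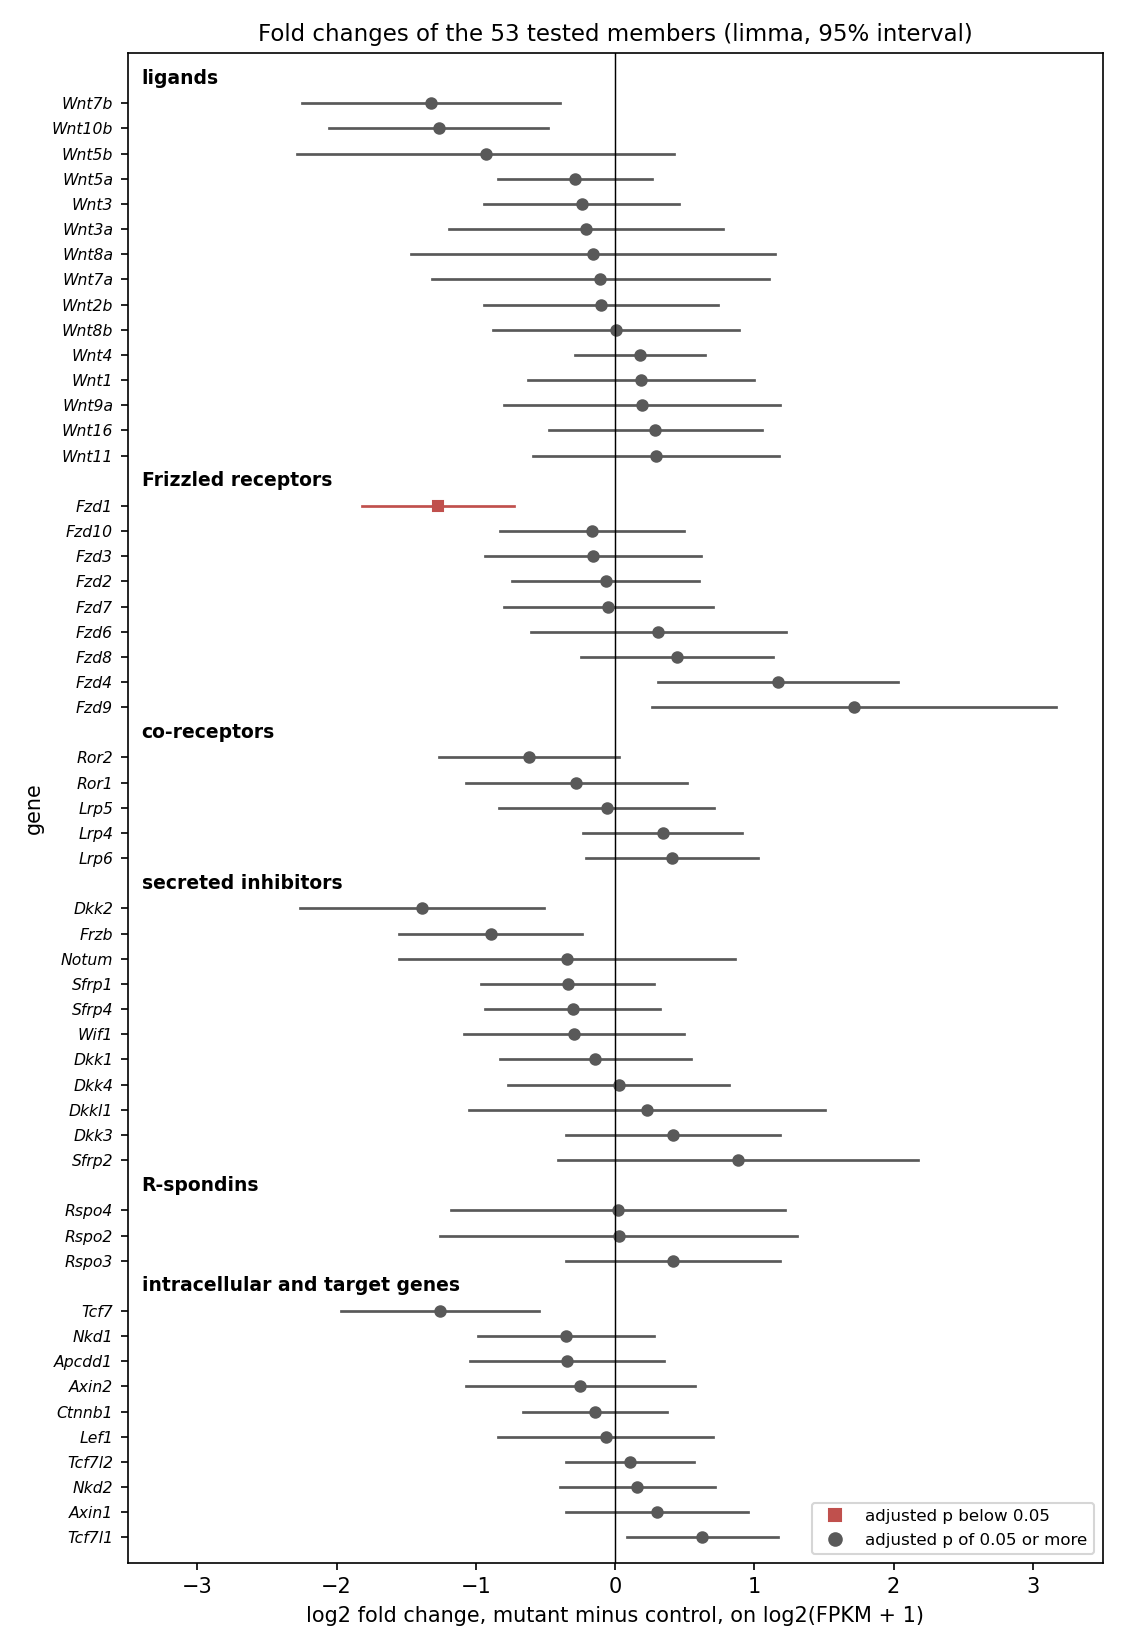
Log2 fold change (mutant minus control, on log2(FPKM + 1)) of the 53 tested members with its 95% interval from limma, grouped by role and ordered by value; the square marks the called gene. Fzd1 is the only square, at -1.27, and the intervals of Wnt10b, Fzd4, Fzd9, Dkk2, Frzb, Tcf7 and Tcf7l1 also exclude 0, but they are not adjusted for the number of genes and none of these 7 members was called; nothing is read from the interval of Wnt7b, which passed the filter through the controls alone.

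Frizzled proteins are the seven-pass membrane receptors that bind Wnt ligands. Fzd1, which signals mainly through beta-catenin, measured 10.2, 11.3 and 14.8 FPKM in controls 1, 2 and 3, against 4.01, 5.0 and 4.11 FPKM in the mutants 1, 2 and 3. Every mutant value lay below every control value, and control 3, the control of the same sex as the mutants, was the highest. The mutant values lay under the olfactory receptor genes' 90th percentile and the control values above it. The mean fell 2.76-fold, from 12.1 ± 2.41 to 4.38 ± 0.544 FPKM (SD, n = 3 libraries per group), with a log2 fold change of -1.27 ± 0.24 (SE; limma adjusted p = 0.0464). The values correspond to 61, 67 and 118 fragments in controls and 24, 36 and 26 in mutants, a ratio after scaling of 0.357 with an exact 95% interval from 0.276 to 0.458 that covers counting error only. The call was lost whichever library was left out (adjusted p from 0.0765 to 0.151), while the log2 fold change stayed between -1.38 and -1.13 and the calls over all genes went from 232 to between 13 and 414. Over all 17 alternatives the log2 fold change lay between -1.70 and -1.13 and the adjusted p between 0.0253 and 0.711, and it was -1.56 with control 3 as the only control (adjusted p = 0.322, with the lone control assumed to vary like the mutants).

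The protein-coding gene Fzd1 has 1 exon and occupies bases 4753839 to 4758035 of chromosome 5, minus strand (GRCm38, the build called mm10). No annotated exon of another gene overlaps it. Libraries of this kind do not separate strands, so that fragments of any unannotated transcript on the opposite strand would be counted with it. The 250 bases before its RefSeq start are shown because Fzd1 is the called member, and those of its paralogue Fzd7 because that window alone among the members' holds matches to a Tcf and Lef motif and to the Gli core motif. In capitals are a match to CCACCCA, the core of the binding motif of Gli factors, at base 92, and a match to the reverse complement of CTTTGTT, a motif of Tcf and Lef factors, at base 121. Bases are counted from the 5′ end of each window, and the sequences are RefSeq's for GRCm38.p6.
Fzd1, chr5:4758217-4758466, minus strand: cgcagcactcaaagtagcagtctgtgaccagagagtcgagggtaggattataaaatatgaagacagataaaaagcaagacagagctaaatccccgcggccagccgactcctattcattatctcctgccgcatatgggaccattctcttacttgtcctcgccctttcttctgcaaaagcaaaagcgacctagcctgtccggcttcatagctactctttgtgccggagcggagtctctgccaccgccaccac
Fzd7, chr1:59481897-59482146, plus strand: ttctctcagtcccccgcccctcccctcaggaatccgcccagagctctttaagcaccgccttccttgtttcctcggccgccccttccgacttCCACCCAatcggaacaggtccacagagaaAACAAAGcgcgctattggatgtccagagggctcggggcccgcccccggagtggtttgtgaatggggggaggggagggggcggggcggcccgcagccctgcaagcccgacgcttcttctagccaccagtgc

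Promoter windows were matched for 40 of the 60 members, 49 windows in all. CTTTGAT or CTTTGTT on either strand was found in 5 of the 49 (10.2%), those of Dkk1, Fzd7, Tcf7l2, Wnt11 and Wnt5b, beside 8.06% of 32851 windows over all genes. CCACCCA on either strand was found in 2 (4.08%), those of Fzd7 and Ror2, beside 8.11%. The longer Gli motif GACCACCCA, which contains CCACCCA, was in 0 of the 49 and in 0.225% of all windows. The window of Fzd1 holds none of these letters. The search covered only the 250 bases before each RefSeq start, and whether either factor acts on these genes was not tested. For Fzd1 the bases between 4758035, its start in GENCODE, and 4758217 were not searched. Fzd7, with both short motifs, measured 3.33, 2.59 and 5.79 FPKM in the controls, against 3.79, 4.15 and 2.87 FPKM in the mutants (log2 fold change -0.05 with a 95% interval from -0.80 to 0.70, limma adjusted p = 0.972).

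The other Frizzled receptors went in both directions, and 0 of them were called by limma. With Fzd1 included, 3 of the 9 tested (33.3%) were at an unadjusted p below 0.05, beside 14.1% of all genes tested. That share rests on 3 genes. Fzd4, the receptor for Norrin in vessels as well as for Wnts, measured 0.600, 2.42 and 1.65 FPKM in the controls, against 3.81, 6.16 and 3.80 FPKM in the mutants. The groups did not overlap, but the difference did not pass (log2 fold change 1.17 ± 0.38, limma adjusted p = 0.192). These values are 3, 12 and 11 fragments against 19, 37 and 20, and all lay under the olfactory receptor genes' 90th percentile. The endothelial list given above was higher in the same mutants, and its part in the Fzd4 values was not tested. Fzd9 measured 3.66, 0.736 and 7.69 FPKM in the controls, against 10.3, 6.4 and 28.8 FPKM in the mutants, so that control 3 lay above mutant 2. Its log2 fold change of 1.71 ± 0.64 (limma adjusted p = 0.264) was the largest of the members in the upward direction, and its spread within groups was the widest of the 60 (the largest SD on the log2 scale, 1.1). Fzd2, a receptor for Wnt5a among others, measured 3.66 to 7.3 FPKM in the controls, against 4.69 to 6.17 FPKM in the mutants (log2 fold change -0.07 ± 0.30, limma adjusted p = 0.958). Fzd3, Fzd6, Fzd7, Fzd8 and Fzd10 lay between 1.19 and 6.64 FPKM in every library, with overlapping groups. The sum over the 10 Frizzled genes was 31.6, 38.1 and 49.4 FPKM in the controls, against 40.7, 46.2 and 56.8 FPKM in the mutants.

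**Figure D3:**
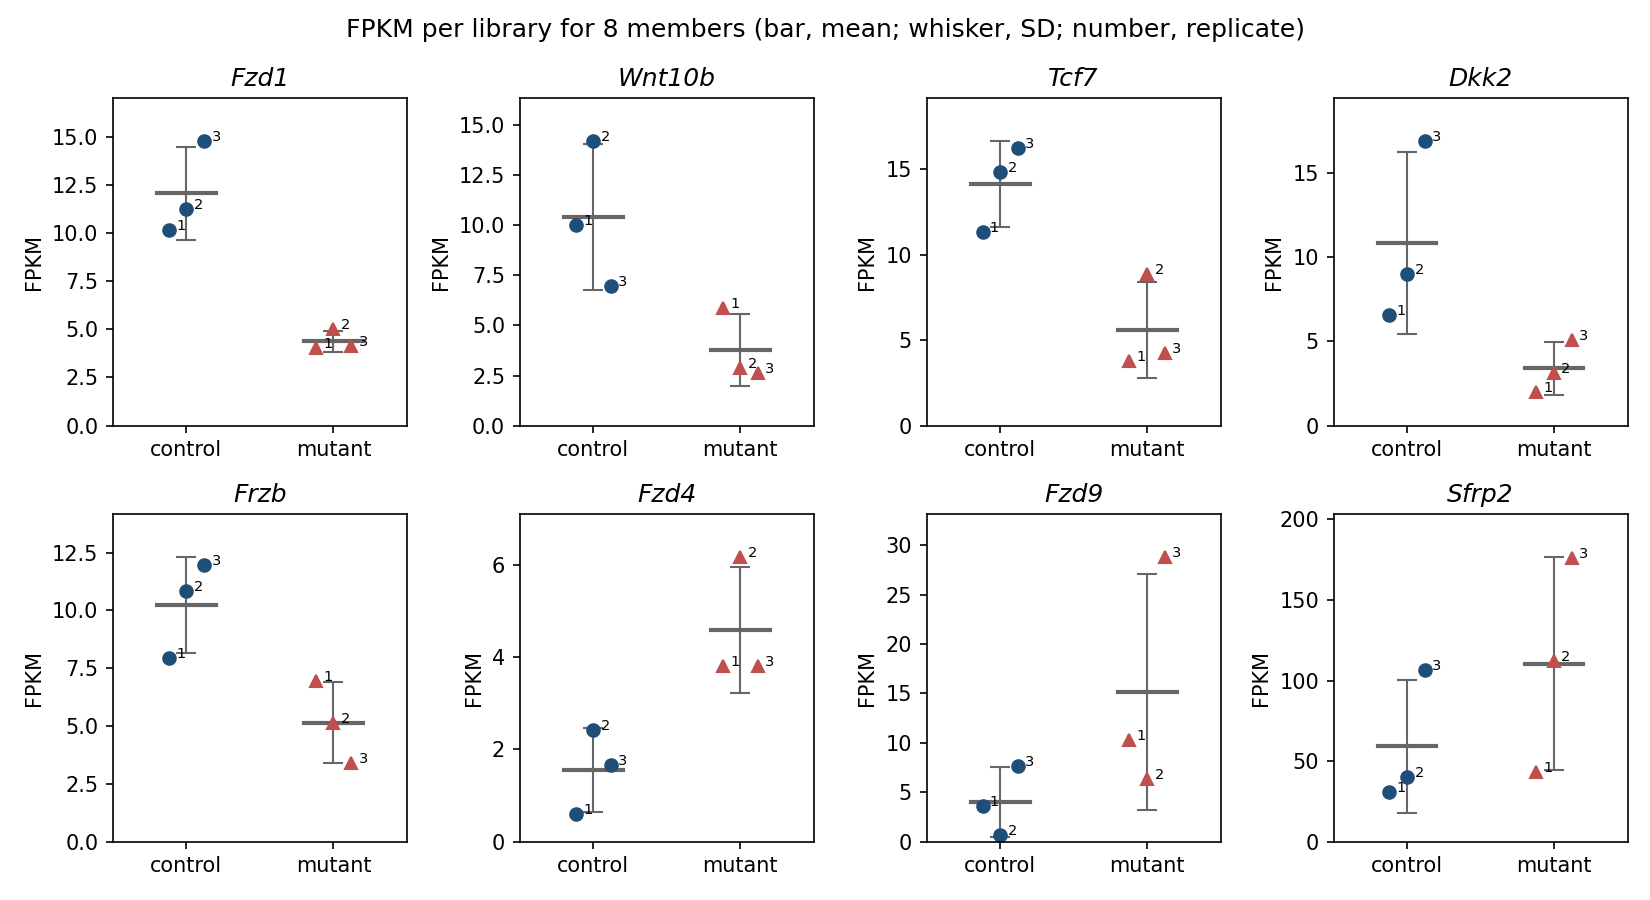
FPKM of 8 members in each library, with 1 panel per gene and separate vertical axes that start at 0; numbers beside the points are replicates, bars are group means and whiskers SDs (n = 3 per group). Fzd1, Wnt10b, Tcf7, Dkk2 and Frzb are lower in all mutants than in any control, Fzd4 is higher in all mutants, and the groups overlap for Fzd9 and Sfrp2.

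Among the ligands, 0 of 15 tested were called by limma. The unadjusted p was below 0.05 for 2 (13.3%, beside 14.1% of all genes tested), Wnt10b and Wnt7b. Of these, Wnt7b was admitted to the test by its controls alone. Wnt4, a ligand of chondrocyte differentiation, was the most abundant, with 17.1, 20.5 and 15.8 FPKM in the controls, against 18.5, 18.7 and 23.7 FPKM in the mutants. The groups overlapped, and the log2 fold change was 0.18 with a 95% interval from -0.29 to 0.65 (limma adjusted p = 0.792). Wnt4 made up 22.5% to 35.9% of the summed level of the 19 ligands in each library, and Wnt4, Wnt5a, Wnt10b and Wnt5b together 57.9% to 69.6%. The sum was 67.0, 75.7 and 70.2 FPKM in the controls, against 56.0, 59.9 and 66.0 FPKM in the mutants.

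Wnt10b, a canonical ligand that favours bone over fat formation, was the ligand with the smallest p. It measured 9.99, 14.2 and 6.99 FPKM in the controls, against 5.87, 2.87 and 2.6 FPKM in the mutants. The groups did not overlap, although control 3 and mutant 1 lay close together. The log2 fold change of -1.27 ± 0.35 did not pass (limma adjusted p = 0.130). Its fragments numbered 97 in controls and 35 in mutants, a scaled ratio of 0.369 (exact 95% interval from 0.243 to 0.548, counting error only). Its neighbour Wnt1 starts 11707 bases away on the other strand of chromosome 15 and measured 1.21 to 2.91 FPKM in the controls, against 1.61 to 2.75 FPKM in the mutants, with 19 and 23 fragments. Wnt7b, a canonical ligand, measured 3.39, 1.92 and 1.59 FPKM in the controls, against 0.22, 0.732 and 0 FPKM in the mutants. These values are given as a description, with no test, since no mutant reached the 1 FPKM of the filter. All these values lay under the olfactory receptor genes' 90th percentile, and exons of a gene on the opposite strand overlap those of Wnt7b.

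Wnt5a and Wnt5b are ligands of the non-canonical branch. Wnt5a, which orients cells in growing cartilage, measured 9.28, 9.54 and 10.7 FPKM in the controls, against 6.33, 7.23 and 10.5 FPKM in the mutants. Mutant 3 lay within the control range and the other mutants below it (log2 fold change -0.29 ± 0.24, limma adjusted p = 0.704). Wnt5b, its close paralogue, varied most among the ligands, with 2.58, 5.87 and 15.4 FPKM in the controls, against 2.19, 6.67 and 1.38 FPKM in the mutants. Control 3 alone stood apart, and the log2 fold change of -0.93 ± 0.60 became -0.35 without it (limma adjusted p = 0.584 and 0.858). The means of the remaining ligands were at most 4.68 FPKM in either group.

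No co-receptor was called: by limma 0 of 5 passed, with 0 at an unadjusted p below 0.05. Ror2, the kinase through which Wnt5a acts, measured 9.25, 9.31 and 9.17 FPKM in the controls, against 3.7, 8.31 and 5.79 FPKM in the mutants. The controls lay close together and every mutant lay below them (log2 fold change -0.62 ± 0.29, limma adjusted p = 0.382). Lrp6, which transmits the canonical signal, measured 5.2, 3.52 and 6.79 FPKM in the controls, against 6.92, 6.77 and 7.28 FPKM in the mutants (log2 fold change 0.41 ± 0.27, limma adjusted p = 0.602), and its sign turned with the muscle list as a covariate (-0.24). Lrp4, which binds sclerostin in bone and agrin at the nerve-muscle junction, measured 6.91, 7.55 and 5.53 FPKM in the controls, against 8.36, 11.1 and 6.94 FPKM in the mutants (log2 fold change 0.34 ± 0.25, limma adjusted p = 0.649). The Lrp4 groups overlapped, and the log2 fold change lay between 0.18 and 0.56 over all 17 alternatives. The muscle list was higher in every mutant, so that a fit with it as a covariate cannot separate it from genotype. Its part in the Lrp4 and Lrp6 values was not tested. Lrp5 was at 1.26 to 2.39 FPKM and Ror1 at 1.67 to 4.38 FPKM, with overlapping groups.

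The secreted inhibitors held the most abundant extracellular members. Sfrp2, Wif1 and Dkk3 together made up 71.8% to 86.4% of the summed level of the 12 inhibitors, which was 202, 222 and 330 FPKM in the controls, against 161, 355 and 377 FPKM in the mutants. In every library the inhibitors summed to more than the ligands. By limma 0 of 11 tested inhibitors were called, with 2 at an unadjusted p below 0.05 (18.2%, beside 14.1% of all genes tested).

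Sfrp2, a Frizzled-related protein of mesenchyme that binds Wnts, measured 31.0, 40.2 and 107 FPKM in the controls, against 43.5, 112 and 176 FPKM in the mutants. Control 3 lay with the higher mutants and mutant 1 with the lower controls, so that the groups overlapped (within-group SD of 0.97 on the log2 scale, log2 fold change 0.88 ± 0.57, limma adjusted p = 0.585). Its sign turned negative when control 3 was the only control (-0.16, adjusted p = 0.965, under the same assumption as for Fzd1) and with Xist as a covariate (-0.19). Wif1, which binds Wnts directly and is a gene of cartilage, measured 75.9, 79.2 and 78.4 FPKM in the controls, against 41.5, 120.4 and 50.6 FPKM in the mutants. The controls lay together, and mutant 2 lay above them and the other mutants below (log2 fold change -0.29 with a 95% interval from -1.08 to 0.50, limma adjusted p = 0.803). Dkk3, a member of the Dickkopf family that does not act on Lrp6 as the others do, measured 42.2, 39.8 and 67.7 FPKM in the controls, against 39.4, 69.9 and 99.1 FPKM in the mutants (limma adjusted p = 0.696).

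Dkk2 and Frzb were the inhibitors whose groups did not overlap (2 of the 11 tested, 18.2%, beside 19.2% of all genes tested). Dkk2, which binds Lrp5 and Lrp6, measured 6.6, 9.01 and 16.9 FPKM in the controls, against 1.99, 3.15 and 5.1 FPKM in the mutants. It had the largest downward log2 fold change of the members, -1.39 ± 0.39, and did not pass (limma adjusted p = 0.136). Its fragments numbered 191 and 56, a scaled ratio of 0.300 (exact 95% interval from 0.218 to 0.405, counting error only). Frzb, the Wnt-binding antagonist of articular cartilage, measured 7.95, 10.8 and 11.9 FPKM in the controls, against 6.94, 5.1 and 3.41 FPKM in the mutants (log2 fold change -0.89 ± 0.29, limma adjusted p = 0.192). Its fragments numbered 135 and 65. Both genes were highest in control 3.

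Sfrp1, a further Wnt-binding antagonist, measured 9.19, 10.4 and 13.6 FPKM in the controls, against 5.86, 9.32 and 10.8 FPKM in the mutants (log2 fold change -0.34 ± 0.27, limma adjusted p = 0.686). Sfrp4 was at 12.1 to 17.2 FPKM in the controls, against 7.66 to 15.3 FPKM in the mutants, and Dkk1, the best known blocker of Lrp6, at 6.44 to 10.3 and 5.15 to 11.1 FPKM. Notum, an enzyme that strips the lipid from Wnts and is itself a target, measured 3.07, 5.80 and 2.02 FPKM in the controls, against 1.54, 6.72 and 1.09 FPKM in the mutants, from 3 to 21 fragments per library. Dkk4 and Dkkl1 were at 1.0 to 6.56 FPKM with overlapping groups.

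R-spondins strengthen Wnt signalling by keeping receptors at the cell surface. Of 3 tested, 0 were called by limma, with 0 at an unadjusted p below 0.05. Rspo3 measured 6.36, 6.72 and 4.06 FPKM in the controls, against 10.2, 10.1 and 4.52 FPKM in the mutants, mutant 3 lying with the controls (log2 fold change 0.42 ± 0.34, limma adjusted p = 0.692). Rspo2 ranged from 4 to 35 fragments among the controls alone and from 12 to 31 among the mutants (0.888 to 7.83 and 2.40 to 6.53 FPKM). At this spread the 95% interval of its log2 fold change ran from -1.26 to 1.31.

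Of the 10 intracellular and target genes 0 were called by limma, with 2 at an unadjusted p below 0.05, the DNA-binding factors Tcf7 and Tcf7l1. Tcf7, a partner of beta-catenin and also a target, measured 11.3, 14.8 and 16.2 FPKM in the controls, against 3.78, 8.84 and 4.23 FPKM in the mutants. Every mutant lay below every control, with control 3 the highest, and the log2 fold change of -1.26 ± 0.31 did not pass (limma adjusted p = 0.0991; alternatives gave 0.0592 to 0.721). Its fragments numbered 139 in controls and 55 in mutants, a scaled ratio of 0.404 (exact 95% interval from 0.290 to 0.556, counting error only). Tcf7l1, mainly a repressor of Wnt targets, measured 10.8, 7.72 and 11.4 FPKM in the controls, against 12.7, 16.8 and 18.3 FPKM in the mutants (log2 fold change 0.63 ± 0.24, limma adjusted p = 0.277). Tcf7l2 lay between 14.6 and 20.2 FPKM and Lef1 between 3.5 and 8.29 FPKM, with overlapping groups.

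The feedback targets most often used as readouts of the canonical branch differed by less than the test could call. Axin2 measured 1.20, 1.56 and 1.55 FPKM in the controls, against 1.20, 0.572 and 1.47 FPKM in the mutants, which is 28 and 20 fragments in all. The 95% interval of its log2 fold change ran from -1.07 to 0.57, and the scaled ratio of fragments was 0.730 (exact 95% interval from 0.390 to 1.34), so that neither an equal level nor a fall by more than a factor of 2 was excluded at this depth. Nkd1 measured 4.64, 6.11 and 7.0 FPKM in the controls, against 3.56, 4.09 and 5.63 FPKM in the mutants (log2 fold change -0.35 ± 0.28, limma adjusted p = 0.679). Apcdd1 measured 4.6 to 5.91 FPKM in the controls, against 2.46 to 5.38 FPKM in the mutants, and Lef1 had an interval from -0.84 to 0.71. Ctnnb1, the gene of beta-catenin and the most abundant member, measured 122, 141 and 145 FPKM in the controls, against 108, 171 and 99.95 FPKM in the mutants (log2 fold change -0.15 with a 95% interval from -0.66 to 0.37, limma adjusted p = 0.855). Axin1, a scaffold of the complex that destroys beta-catenin, measured 6.1 to 12.2 FPKM in the controls, against 8.46 to 12.1 FPKM in the mutants (log2 fold change 0.30 ± 0.29, limma adjusted p = 0.744). Its sign turned with the muscle covariate (-0.57), with the Xist covariate (-0.23) and with control 3 as the only control (-0.24). Nkd2 measured 9.99 to 12.9 and 9.25 to 15.6 FPKM.

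**Figure D4:**
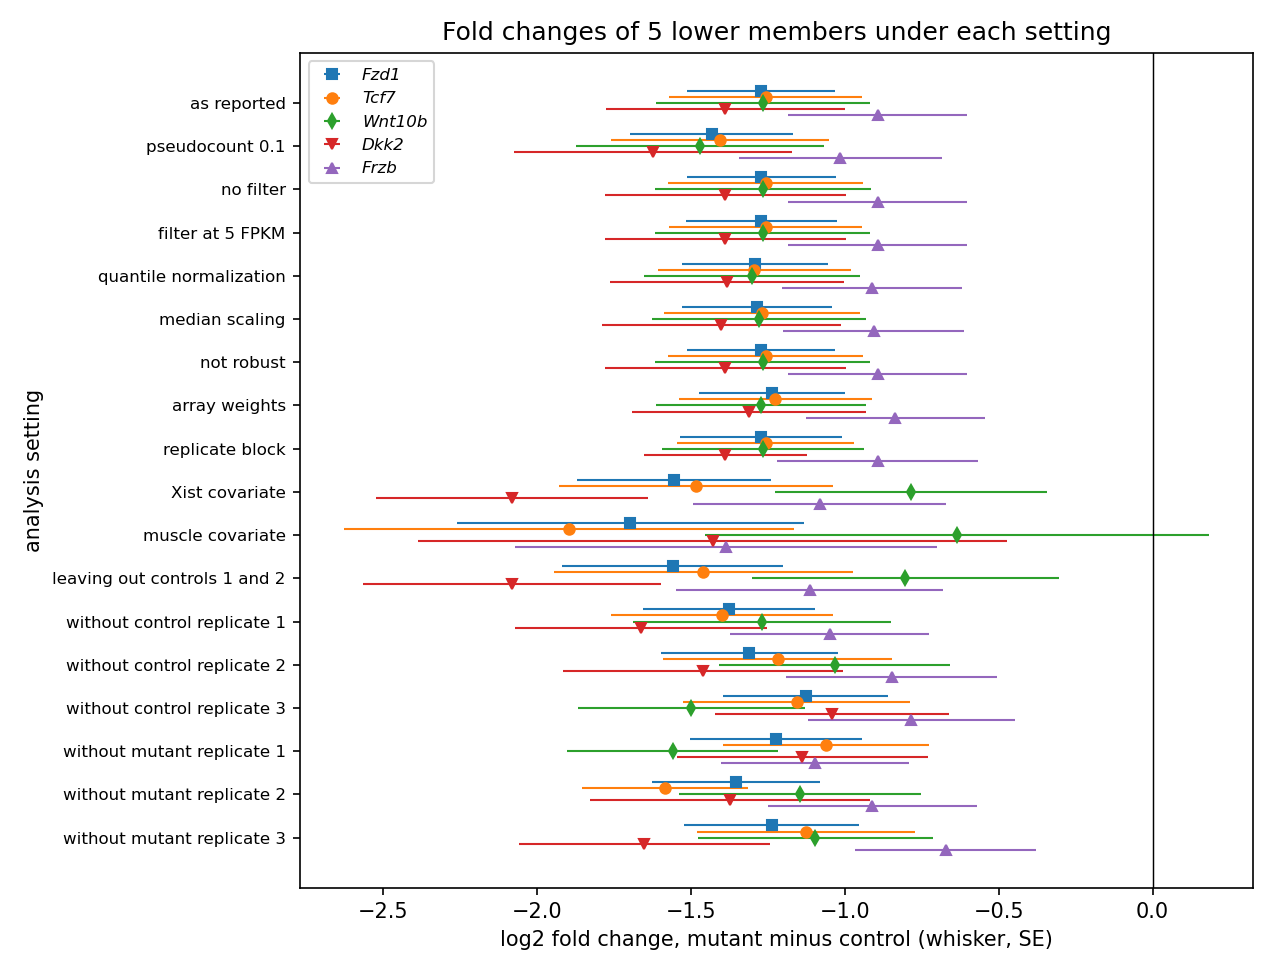
Log2 fold change (horizontal axis, whisker SE) of 5 members whose mutant values all lay below the controls, under the reported analysis and each of 17 alternatives (vertical axis). All points lie left of 0, and among these 5 those of Wnt10b move nearest to it, to -0.64, with the muscle list as a covariate. Since the groups of these members do not overlap, leaving out libraries could not turn their sign. Ror2 and Wnt7b, also lower in every mutant, are not shown, and Ror2 moved to -0.37.

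The tables also hold 70 other Wnt pathway genes. Of these, 65 were tested, and 1 fell and 0 rose by limma (1.54% called, beside 1.24% of all genes tested). At an unadjusted p below 0.05 there were 8 (12.3%), beside 14.1% of all genes tested. Cthrc1, a secreted protein that favours the Wnt5a and Ror2 branch, fell from 466, 550.2 and 551 FPKM in controls to 98.4, 166 and 88.4 FPKM in the mutants (log2 fold change -2.19 ± 0.25, limma adjusted p = 0.0125). That call was lost without control 1, control 2 or mutant 1 (adjusted p of 0.0619, 0.0541 and 0.0602), where 13, 20 and 19 genes were called in all. Its log2 fold change stayed between -2.47 and -2.02 with any 1 library left out. The next smallest p-values did not pass. Dact1, an antagonist that binds Dishevelled, measured 12.4 ± 1.88 and 6.27 ± 0.308 FPKM (SD, n = 3 per group; limma adjusted p = 0.0973), the glypican Gpc3, which binds Wnts and hedgehogs, 109 ± 22.0 and 53.1 ± 19.7 FPKM (limma adjusted p = 0.118), and the cyclin Ccnd1, a target of several pathways, 14.8 ± 1.35 and 8.71 ± 1.85 FPKM (limma adjusted p = 0.179). Groups did not overlap in 15 of the 65 (23.1%), beside 19.2% of all genes tested. The planar cell polarity genes and the destruction complex, with 11 and 12 tested, had log2 fold changes between -0.46 and 0.51 and adjusted p of 0.452 or more.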

How the data were processed

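Each deposited table gives 1 value per gene symbol for 1 library. The unit of the authors' values was taken to be FPKM, from the values and from the use of Cufflinks, since no header states it. Per the submitters' processing notes the tools were Cufflinks 2.2.1, TopHat2 2.0.13, SAMtools 0.1.19 and Bowtie2 2.2.3, and the build was mm10. RNA was converted with SMART-Seq HT and Nextera kits, per the labels' protocols, which do not keep strand.

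The test used limma 3.58.1 (R 4.3.3, trend, robust moderation) on log2(FPKM + 1) for genes reaching 1 FPKM in 3 or more libraries, with group as the only term and Benjamini-Hochberg adjustment over all genes tested at 0.05. The procedure was tested on simulated data, which held no differences in sex or tissue make-up between libraries. Members and lists were chosen with earlier results of these data known. Statistics are given for called members, for up to 4 members per role with the smallest p and a mean of at least 5 FPKM, for the most abundant member per role, and for the called and the 4 smallest-p other pathway genes. Wnt7b, Fzd4, Fzd7, Wnt1, Wif1, Dkk3, Rspo2, Axin2 and further members were named after their values were seen.

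Fragments are the smallest whole numbers, up to 300, that fit all 6 values. Their total was estimated from 809 genes with 1 annotated transcript of at least 1500 bases (scipy 1.17.1 for exact 95% intervals). Positions come from GENCODE M21, and promoters from RefSeq.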

Additional observations from a re-analysis of the deposited data

How the results depend on the processing

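The 1 member called lower, Fzd1, was still called with a filter at 5 FPKM, quantile normalization, median scaling and array weights. The count of members called lower was 0 with a pseudocount of 0.1, with no filter, with moderation that was not robust, with the replicate block, with the Xist or muscle covariate, with controls 1 and 2 left out, and without each library in turn (range 0 to 0), while the log2 fold change of Fzd1 stayed between -1.70 and -1.13. Over all genes the block and each covariate left 2 calls, controls 1 and 2 left out 5, and leaving out 1 library 13 to 414, beside 232. The count of members called higher was 0 in every setting. The count of other pathway genes called lower was 0 with the replicate block, either covariate and controls 1 and 2 left out, and ranged from 0 to 1 without each library in turn; it was lost without control 1, control 2 or mutant 1. The cause was not tested.

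Deviations of same-numbered libraries correlated at 0.006, -0.016 and -0.009, and not every library correlated best with its own number. With only 3 libraries per group these values cannot decide whether the libraries were paired.

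Of 24 named genes, 18 kept their sign in all 17 alternatives. The mean of the muscle list on log2(FPKM + 1) was 6.54 to 7.55 in the controls and 8.28 to 9.15 in the mutants. A fit with this covariate therefore cannot separate muscle from genotype. With the muscle covariate the log2 fold change was 0.0385 for Wnt5a, 0.16 for Fzd2, -0.24 for Lrp6 and -0.57 for Axin1. With the Xist covariate it was -0.19 for Sfrp2 and -0.23 for Axin1, and with controls 1 and 2 left out -0.16 and -0.24. Leaving out 1 library at a time gave -0.33 to 0.0895 for Fzd2 (0.0377 without control 2, 0.0895 without control 3, 0.0175 without mutant 1) and -0.38 to 0.0007 for Ctnnb1 (0.0007 without mutant 3). None of these genes was called in any setting. Depth limits members such as Axin2, measured from 28 and 20 fragments per group.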

Other observations

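Several ligand genes lie beside one another in the mouse genome. Wnt3a and Wnt9a start on opposite strands of chromosome 11 with 16176 bases between them, and measured 0.551 to 3.01 and 0.895 to 3.15 FPKM in the controls, against 0.911 to 1.10 and 1.06 to 3.36 FPKM in the mutants. Wnt9b and Wnt3, on the same chromosome with 24329 bases between them, differed in level: Wnt9b measured 0 to 0.808 FPKM over all libraries and Wnt3 2.27 to 3.83 FPKM. Wnt6 and Wnt10a, on chromosome 1 with 6194 bases between them, were both too low to test, and Wnt10a reached 3.76 FPKM in mutant 3 alone, from 10 fragments beside 1 to 3 in each other library.

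The members also differed in how closely the libraries of a group lay together. The within-group SD on the log2 scale was lowest for Fzd10 (0.14), Tcf7l2 (0.17), Wnt4 (0.19) and Fzd1 (0.21), and highest for Fzd9 (1.1), Wnt5b (0.997), Sfrp2 (0.97) and Rspo2 (0.92). Exons of 12 of the 60 members, among them Axin2, Ctnnb1, Wnt5a, Wnt7b and Tcf7l1, overlap exons on the opposite strand, and without strand their fragments cannot be told apart from those of the overlapping genes.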
